A study of Mus musculus with 12 samples.

Results

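The mouse mitochondrial genome (mtDNA) encodes 13 mRNAs, all for subunits of the complexes of oxidative phosphorylation. The 10 examined here were chosen by name, as every row of the 3 deposited tables whose gene is mt-Nd1, mt-Nd2, mt-Nd4, mt-Nd5, mt-Nd6, mt-Cytb, mt-Co1, mt-Co2, mt-Co3 or mt-Atp6. All 10 were found, among 47632 genes in each table and 37 genes listed on the mitochondrial chromosome. They were measured by RNA-seq in epithelial cells isolated with EDTA from the colons of C57/BL6 mice. Tfeb ΔIEC animals (labelled KO) carry floxed Tfeb alleles and Cre recombinase under the villin promoter, which is active throughout the intestinal epithelium, and Tfeb flox/flox animals (labelled WT) carry the floxed alleles. Both genotypes were sampled untreated (day 0, ages of 10 and 12 weeks), on day 4 (12 weeks) and on day 11 (10 weeks) of an experiment with dextran sulfate sodium (DSS), a detergent-like polymer that injures the colonic epithelium. The labels give 2.5% DSS, the methods a slightly lower concentration, and DSS was replaced by water before day 11. There were 2 animals per group and 12 in all.

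Each deposited value is an FPKM (fragments counted per kilobase of transcript after scaling for library size) that the authors' software made from both animals of a group. There is therefore 1 value per genotype and day, with no spread between animals. Every difference below has no replicate check and carries no test, and a difference between neighbouring values cannot be set against an error. The FPKM values of the 3 days were scaled separately, so a difference between days in the deposited FPKM can also stem from the scaling, and days are compared mainly as shares of the summed FPKM. The tables give no read numbers, and the depth is unknown.

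The mitochondrial genome is transcribed from both strands into long precursors, from which the mRNAs, rRNAs and tRNAs are cut. The heavy strand serves as template for most mRNAs, including 9 of the 10 examined, and mt-Nd6 is read from the other strand. The proteins form the core of complexes I (NADH dehydrogenase), III (cytochrome bc1), IV (cytochrome c oxidase) and V (ATP synthase), in which they are joined by subunits encoded in the nucleus. Each of the 10 is a single exon on the mitochondrial chromosome, from 519 nt (mt-Nd6) to 1824 nt (mt-Nd5) long. Along chrM the order on the plus strand is mt-Nd1 (chrM:2751-3707), mt-Nd2 (chrM:3914-4951), mt-Co1 (chrM:5328-6872), mt-Co2 (chrM:7013-7696), mt-Atp6 (chrM:7927-8607), mt-Co3 (chrM:8607-9390), mt-Nd4 (chrM:10167-11544), mt-Nd5 (chrM:11742-13565) and mt-Cytb (chrM:14145-15288), with mt-Nd6 (chrM:13552-14070) on the minus strand. The lengths of mt-Co3, mt-Nd4 and mt-Cytb are not multiples of 3, as the poly(A) tail completes their stop codons. Colonocytes take much of their energy from the oxidation of butyrate in mitochondria.

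Nuclear chromosomes hold copies of mtDNA, and the sequences of the 10 mRNAs were therefore compared with all other transcripts of GENCODE M21 (assembly GRCm38, the same as mm10). A block on the minus strand of chromosome 1 (chr1:24611535-24616197) holds 7 annotated pseudogenes that follow the mitochondrial gene order from the end of mt-Co1 to the middle of mt-Nd4. Gm28661 matched 681 of 684 nt of mt-Co2 with 0 mismatches, Gm10925 matched 678 of 681 nt of mt-Atp6 with 0 mismatches, and Gm28437 matched 783 of 784 nt of mt-Co3 with 0 mismatches. The last 60 aligned bases of each pair are shown because reads from them cannot be assigned to the mitochondrial gene or to its nuclear copy. They lie at chrM:7634-7693, chrM:8545-8604 and chrM:9330-9389 on the plus strand, and at chr1:24614885-24614944, chr1:24613974-24614033 and chr1:24613189-24613248 on the minus strand.
mt-Co2: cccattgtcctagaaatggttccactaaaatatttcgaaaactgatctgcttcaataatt
Gm28661: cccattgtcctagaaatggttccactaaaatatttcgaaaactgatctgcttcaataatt
mt-Atp6: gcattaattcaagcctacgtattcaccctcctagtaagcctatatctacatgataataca
Gm10925: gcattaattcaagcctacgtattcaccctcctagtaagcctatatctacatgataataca
mt-Co3: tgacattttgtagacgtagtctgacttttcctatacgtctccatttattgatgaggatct
Gm28437: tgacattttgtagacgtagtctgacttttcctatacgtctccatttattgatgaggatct

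For mt-Co1 and mt-Nd4 the block holds a part of the gene. Gm29216 matched the last 483 of 1545 nt of mt-Co1 with 1 mismatch, A1066T, counted from the 5′ end of the mRNA with the base of mt-Co1 first. The window around it is shown with that base in capitals, at chrM:6390-6449 (plus strand) and chr1:24616129-24616188 (minus strand). Gm28439 matched the first 876 of 1378 nt of mt-Nd4 with 0 mismatches. The window of mt-Nd4 at chrM:11013-11072 (plus strand) spans the end of that copy, with the bases past it in capitals.
mt-Co1: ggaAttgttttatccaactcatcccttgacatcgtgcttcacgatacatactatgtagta
Gm29216: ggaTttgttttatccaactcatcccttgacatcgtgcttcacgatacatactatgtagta
mt-Nd4: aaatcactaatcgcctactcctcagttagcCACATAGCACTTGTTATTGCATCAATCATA

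mt-Nd5 and mt-Nd6 lie on opposite strands and overlap by 14 nt at their 3′ ends. The last 40 bases of each, at chrM:13526-13565 (plus strand) and chrM:13552-13591 (minus strand), are shown with the overlap in capitals. The full-length cDNA protocol does not mark the strand, so RNA from the opposite strand of a gene cannot be told apart from its mRNA.
mt-Nd5: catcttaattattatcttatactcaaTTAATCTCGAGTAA
mt-Nd6: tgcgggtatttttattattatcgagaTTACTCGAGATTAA

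Facts of the whole series that touch these values are as follows. Tfeb was at 0.901, 1.08 and 1.18 FPKM in Tfeb flox/flox cells on days 0, 4 and 11, at 0.185 FPKM in Tfeb ΔIEC cells on day 0, and listed at 0 there on days 4 and 11. Day 4 and day 11 of the same genotype were close to each other over all genes: of the genes above 0 on both days, 14.3% in Tfeb flox/flox cells and 10.2% in Tfeb ΔIEC cells had identical FPKM values. Between day 0 and day 4 the share of the summed FPKM was at least 2-fold lower for 43.3% and 9.59% of the genes used, and between day 4 and day 11 for 0.433% and 0.187%. The values of day 11 are therefore not treated as a second observation of those of day 4. The summed FPKM was 975316 and 973878 on day 0 (Tfeb flox/flox and Tfeb ΔIEC), but 1464717 and 820344 on day 4 and 1473485 and 827204 on day 11. General epithelial (7) and colonocyte (6) markers were all at 1 FPKM or more in every group. On the log2(FPKM + 1) scale the median difference, Tfeb ΔIEC minus Tfeb flox/flox, of the colonocyte markers was -0.55, 1.35 and 1.37 on days 0, 4 and 11, with 2 of 6 at least 2-fold lower on day 0 and 4 of 6 at least 2-fold higher on days 4 and 11 (Krt20 at 3.19 on day 4), beside 16.1% of all genes used lower on day 0 and 25.6% and 26.1% higher on days 4 and 11. That of the general epithelial markers was 0.28, 0.24 and 0.31, with 1, 2 and 2 of 7 at least 2-fold higher beside 13.5%, 25.6% and 26.1% of all genes, among them Vil1 and Cdh1 at 2.83 and 2.70 on day 4, named after their values were seen. The summed FPKM of 7 goblet cell markers was 22832 to 78505 in Tfeb flox/flox cells and 15041 to 16345 in Tfeb ΔIEC cells, but 3 of the 7 (Muc2, Clca1 and Spdef) were higher in Tfeb ΔIEC cells on each day. That of 6 Paneth cell markers, which are not expected in colon, was 46.4 FPKM in Tfeb flox/flox and 114.1 FPKM in Tfeb ΔIEC cells on day 0, 2033 and 22.4 FPKM on day 4, and 1903 and 23.4 FPKM on day 11. On day 0 the higher sum in Tfeb ΔIEC cells was that of Pla2g2a alone (4.27 and 111.0 FPKM), while the other 4 used were lower there and the list median was -1.10. The summed FPKM of 6 enteroendocrine markers was 70.2 to 296.0 FPKM in Tfeb flox/flox and 72.6 to 97.3 FPKM in Tfeb ΔIEC cells. On days 4 and 11 the higher sum in Tfeb flox/flox cells was mostly Pyy (209.4 and 240.9 FPKM, against 17.8 and 20.9 FPKM). Of the 5 used, 3 were higher in Tfeb ΔIEC cells on each day, and the list medians were 0.11, 0.01 and 0.05. The summed FPKM of 7 small-intestinal enterocyte markers, mostly Fabp2, was 841.1 to 1916 FPKM in Tfeb flox/flox and 811.3 to 903.7 FPKM in Tfeb ΔIEC cells. That of 12 immune cell markers was 25.1 to 43.3 in Tfeb flox/flox cells and 21.8 to 182.4 in Tfeb ΔIEC cells, mostly Cd74, and S100a9 and Cd68 were listed at 0 in all groups. That of 8 stromal markers was at most 5.87, and Col1a2 and Des were listed at 0. The part of these differences in the values below was not tested, and fewer cells of a type and less RNA per cell cannot be told apart.

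The levels of the 10 mRNAs differed by 583-fold to 3724-fold between the highest and the lowest within a group, and 3 genes made up most of their sum. FPKM divides by transcript length, which puts genes on 1 scale, but for mRNAs whose sequence is shared with nuclear copies, such as mt-Co2, the lowest in each group, the level is uncertain, as the reads could be split between the copies. mt-Co1, the catalytic core of complex IV, was at 22578 FPKM in Tfeb flox/flox and 26136 FPKM in Tfeb ΔIEC cells on day 0, at 8978 and 16844 FPKM on day 4, and at 8213 and 14581 FPKM on day 11. mt-Nd1, a membrane subunit of complex I near the quinone site, was at 19164 and 25538 FPKM on day 0, at 12532 and 18860 FPKM on day 4, and at 11615 and 16823 FPKM on day 11. mt-Cytb, the cytochrome b of complex III and its only subunit encoded by mtDNA, was at 11914 and 14293 FPKM on day 0, at 7470 and 11276 FPKM on day 4, and at 7127 and 10180 FPKM on day 11. In all 3 genes, the Tfeb ΔIEC value was the higher one on each day and the day 0 value of each genotype was above those of days 4 and 11, also as a share of the summed FPKM. mt-Nd1, mt-Co1 and mt-Cytb were among the 35 highest genes of all in each column, and in Tfeb ΔIEC cells among the 11 highest.

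The other 4 subunits of complex I formed a middle range. mt-Nd4, a proton-pumping membrane subunit, was at 2033 FPKM in Tfeb flox/flox and 2662 FPKM in Tfeb ΔIEC cells on day 0, at 1023 and 1550 FPKM on day 4, and at 924 and 1381 FPKM on day 11. mt-Nd5, a proton-pumping subunit at the far end of the membrane arm, was at 1462 and 2357 FPKM on day 0, at 555 and 1704 FPKM on day 4, and at 538 and 1585 FPKM on day 11. mt-Nd2, the third pumping subunit of this kind, was at 1138 and 1516 FPKM on day 0, at 689 and 729 FPKM on day 4, and at 638 and 663 FPKM on day 11. For mt-Nd5 the lowest of the Tfeb ΔIEC values was above the highest of the Tfeb flox/flox values, also as shares of the summed FPKM, whereas for mt-Nd4 and mt-Nd2 the ranges over days overlapped. The share of all genes with such a separation was not computed, and day 11 is not treated as a second observation of day 4. mt-Nd6, the subunit read from the other strand, was at 513 and 474 FPKM on day 0, at 322 and 264 FPKM on day 4, and at 283 and 257 FPKM on day 11. In mt-Nd6 the deposited Tfeb flox/flox value was the higher one on each day, but division by the summed FPKM turned this on days 4 and 11.

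The 3 mRNAs copied whole on chromosome 1 had the lowest values. mt-Co3, a core subunit of complex IV, was at 87.5 FPKM in Tfeb flox/flox and 52.1 FPKM in Tfeb ΔIEC cells on day 0, at 110.5 and 49.9 FPKM on day 4, and at 84.8 and 38.9 FPKM on day 11. mt-Co2, which carries the copper site that receives electrons from cytochrome c, was at 15.6 and 7.02 FPKM on day 0, at 21.5 and 10.5 FPKM on day 4, and at 18.7 and 8.81 FPKM on day 11. For both genes all Tfeb flox/flox values as deposited were above all Tfeb ΔIEC values, but as shares of the summed FPKM the values of the genotypes overlapped. How many of all genes were separated in this way was not computed. mt-Atp6, the subunit of ATP synthase that forms its proton channel with the c-ring, was at 31.6 and 34.1 FPKM on day 0, at 30.4 and 26.3 FPKM on day 4, and at 29.7 and 25.6 FPKM on day 11. Its values overlapped between the genotypes and spanned a narrow range.

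**Figure D1:**
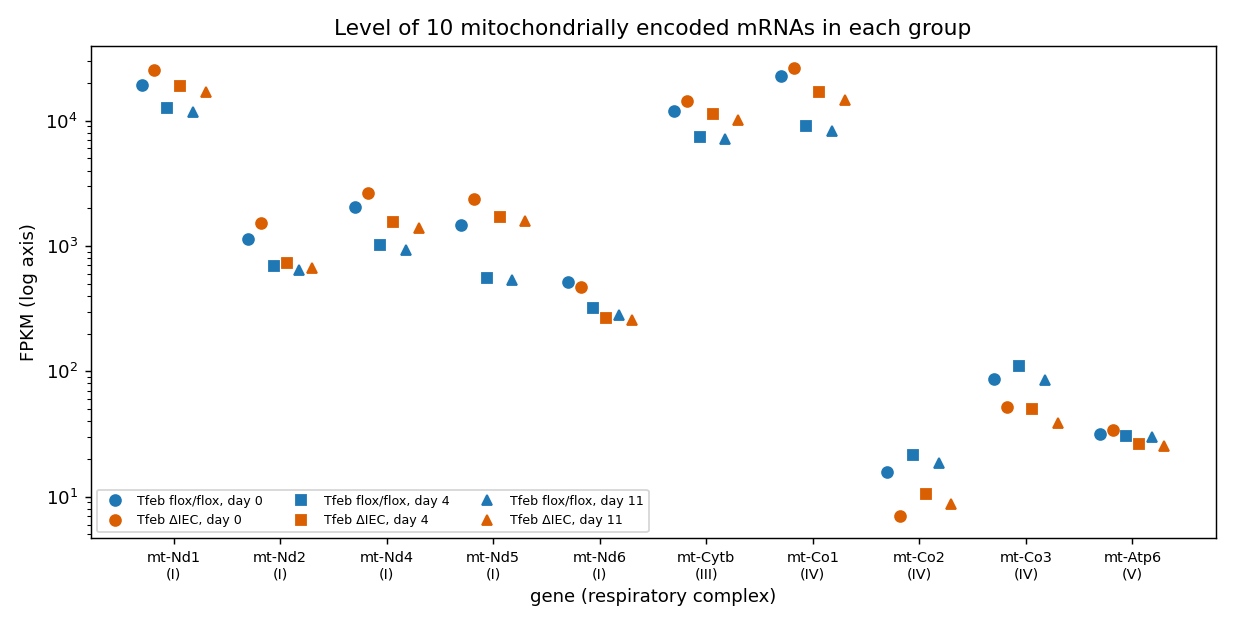
FPKM (log axis) of each of the 10 mRNAs, with its respiratory complex in parentheses; each point is the authors' value for 1 group of 2 animals, so there are no error bars. mt-Nd1, mt-Cytb and mt-Co1 lie between 7127 and 26136 FPKM in all 6 groups, and mt-Co2, mt-Co3 and mt-Atp6 between 7.02 and 110.5 FPKM.

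The order of the levels was nearly the same in the 6 groups. mt-Co1, mt-Nd1 and mt-Cytb held the first 3 places, mt-Nd6, mt-Co3, mt-Atp6 and mt-Co2 the last 4 in this order, and mt-Nd4, mt-Nd5 and mt-Nd2 the places between. Neighbours inside these sets were close: mt-Co1 exceeded mt-Nd1 by a factor of 1.02 in Tfeb ΔIEC cells on day 0, and mt-Nd1 exceeded mt-Co1 by 1.12 in the same genotype on day 4. Without a spread between animals, such neighbours are not ranked. Gaps between the sets were wider, with mt-Cytb 5.37 to 7.71 times above the gene that followed it and mt-Nd6 2.92 to 9.09 times above mt-Co3. Of the summed FPKM of the 10 genes, mt-Nd1 took 32.5% to 39.5%, mt-Co1 27.9% to 38.3% and mt-Cytb 19.6% to 24.2%. mt-Co1 took 38.3% in Tfeb flox/flox cells on day 0 and 28.3% on day 4, and 35.8% and 32.8% in Tfeb ΔIEC cells.

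Among the 10, the lowest levels were those of the mRNAs that share nearly all of their sequence with nuclear genes. The 50-base stretches of each mRNA were looked up in all annotated transcripts from other genes. For mt-Nd1, mt-Nd6 and mt-Cytb, 0% of them occurred in a nuclear gene, for mt-Nd5 7.61% and for mt-Nd2 8.19%. mt-Co1 shared 51.1%, mainly with Gm29216 on chromosome 1 and with Gm13340, a pseudogene on chromosome 2, and mt-Nd4 shared 62.2%. For mt-Co2, mt-Atp6 and mt-Co3, 100%, 99.5% and 99.9% of the stretches occurred in a nuclear gene. The 3 genes with nearly all of their sequence shared were at 7.02 to 110.5 FPKM, and the other 7 at 257 to 26136 FPKM. The sets did not overlap, although mt-Co1, with 51.1% shared, was among the highest. The transcripts searched are those annotated by GENCODE, and the annotation and treatment of reads with several matches used by the authors are not given in the sources used here.

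**Figure D2:**
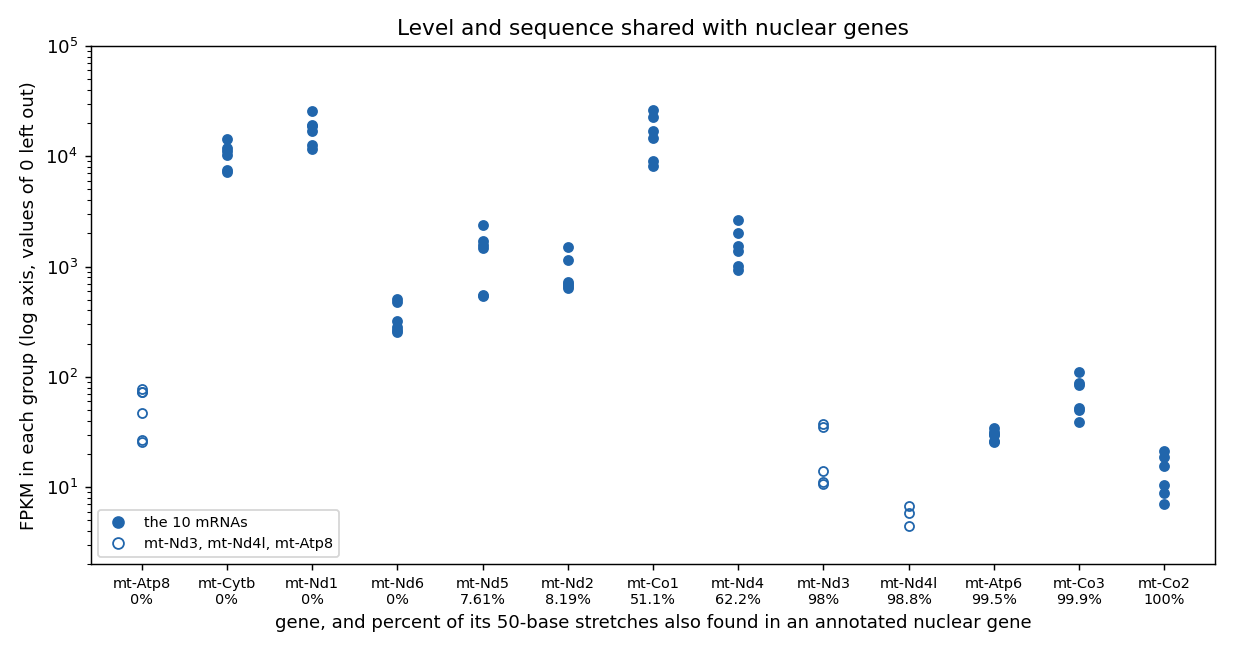
FPKM (log axis) of the 13 mRNAs encoded by mtDNA, 1 point per group, in order of the percentage of their 50-base stretches that also occur in an annotated nuclear gene; values listed at 0 (mt-Nd3 in 1 group and mt-Nd4l in 3) are left out. The filled points at 99.5% to 100% lie between 7.02 and 110.5 FPKM, and the open points at 0%, mt-Atp8, lie between 25.5 and 77.9 FPKM.

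The chromosome 1 copies of mt-Co2, mt-Atp6 and mt-Co3 were listed at levels within 2-fold of those of the genes they match. mt-Co2 was at 15.6 FPKM and Gm28661 at 15.7 FPKM in Tfeb flox/flox cells on day 0, and at 7.02 and 7.07 FPKM in Tfeb ΔIEC cells. mt-Co3 was at 110.5 FPKM and Gm28437 at 124.3 FPKM in Tfeb flox/flox cells on day 4, and at 49.9 and 49.3 FPKM in Tfeb ΔIEC cells. For mt-Atp6 and Gm10925 the corresponding values on day 4 were 30.4 and 23.9 FPKM, and 26.3 and 41.1 FPKM. Over the 18 pairs of these 3 genes and 6 groups, the ratio of gene to copy was 0.616 to 1.37, and gene and copy together came to 14.1 to 234.9 FPKM, still below the lowest value of mt-Nd6. mt-Co2 also shared 35.3% of its stretches with Gm13341 on chromosome 2, which is not in these sums. Gm13341 was at 20.7 FPKM in Tfeb flox/flox and 21.2 FPKM in Tfeb ΔIEC cells on day 0, and at 17.9 and 8.90 FPKM on day 4. With the copy added, mt-Atp6 turned direction on each day, at 82.8 FPKM in Tfeb flox/flox and 69.4 FPKM in Tfeb ΔIEC cells on day 0, 54.3 and 67.5 FPKM on day 4, and 53.1 and 65.1 FPKM on day 11. For the genes copied in part, the copy was far lower than the gene, with Gm29216 at 6.01 to 22.9 FPKM against 8213 to 26136 FPKM of mt-Co1. Gm28439 was at most 1.79 FPKM, against 924 to 2662 FPKM of mt-Nd4. Whether reads of mtDNA origin were assigned to these copies was not tested, since the deposited tables hold no reads.

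The 3 mRNAs of mtDNA outside the set of 10 were also low. mt-Nd3 and mt-Nd4l, membrane subunits of complex I that are likewise copied whole in the block (98.0% and 98.8% of stretches shared), were at 0 to 37.6 FPKM and 0 to 6.73 FPKM. mt-Nd3 was at 14.1 FPKM in Tfeb flox/flox cells and listed at 0 in Tfeb ΔIEC cells on day 0, and mt-Nd4l was listed at 0 in Tfeb ΔIEC cells on all 3 days. Their copies were not at the level of the genes: Gm28438 was at 2.61 to 9.88 FPKM, with mt-Nd3 1.95 to 4.11 times as high where it was above 0, and Gm10222, the copy of mt-Nd4l, was listed at 0 in all groups. mt-Atp8, a small subunit of ATP synthase, shared no stretch with an annotated nuclear gene and was at 25.5 to 77.9 FPKM. Its reading frame overlaps mt-Atp6 by 43 nt, and its mRNA is one molecule with that of mt-Atp6. On chromosome 1 the annotated copies of mt-Co2 and mt-Atp6 are 233 nt apart, the same distance as in mtDNA from the last aligned base of mt-Co2 to the start of mt-Atp6, and 161 nt of mt-Atp8 lie in that stretch of mtDNA, but GENCODE lists no gene there on chromosome 1 and its sequence was not read here. mt-Rnr2, the large mitochondrial rRNA, was at 75329 to 190966 FPKM, and mt-Rnr1, the small one, at 2766 to 10677 FPKM. Of 22 tRNA genes of mtDNA, 5 were above 1 FPKM in either genotype on each day. They are 67 to 75 nt long, at which FPKM is a poor measure of level, and mt-Tq, the highest by its mean over the groups, was at 3542 to 56552 FPKM.

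Between the genotypes, the median of the 10 mRNAs lay above the medians of the nuclear-encoded subunits of all 4 complexes on each day. The difference is given as log2(FPKM + 1) in Tfeb ΔIEC minus Tfeb flox/flox cells. On day 0 the median over the 10 was 0.24, from -1.05 (mt-Co2) to 0.69 (mt-Nd5), beside 0.06 over the 9993 genes with at least 1 FPKM in either genotype. The largest positive values were those of mt-Nd5 (0.69), mt-Nd1 (0.41), mt-Nd2 (0.41) and mt-Nd4 (0.39). By a 2-fold difference, 1 of 10 (mt-Co2) was lower and 0 were higher in Tfeb ΔIEC cells, while 16.1% of all genes used were lower and 13.5% higher. This difference of mt-Co2 rests on 15.6 against 7.02 FPKM.

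On day 4 the median over the 10 was 0.34, beside 0.06 over 9371 genes. mt-Nd5 was 3.07 times as high in Tfeb ΔIEC as in Tfeb flox/flox cells (log2 difference 1.62), mt-Co1 1.88 times (0.91), and mt-Nd4, mt-Cytb and mt-Nd1 1.50 to 1.52 times (0.59 to 0.60). mt-Nd2 was nearly level between the genotypes (0.08), and mt-Nd6 and mt-Atp6 were at -0.28 and -0.20. mt-Co3 and mt-Co2 were at -1.13 and -0.97. By a 2-fold difference, 1 of 10 (mt-Co3) was lower and 1 (mt-Nd5) higher, beside 26.1% lower and 25.6% higher over all genes used. Neither count of the 10 exceeds these shares.

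On day 11 the values were close to those of day 4, with a median of 0.29 beside 0.08 over 9365 genes. mt-Nd5 was again at the top, 2.95 times as high in Tfeb ΔIEC cells (1.56), followed by mt-Co1 at 1.78 times (0.83). mt-Co3 and mt-Co2 were at -1.11 and -1.01. By a 2-fold difference 2 of 10 (mt-Co2 and mt-Co3) were lower and 1 (mt-Nd5) was higher, beside 25.7% and 26.1% over all genes used. mt-Nd5 was the only one of the 10 past 2-fold in the positive direction on days 4 and 11, which are not treated as 2 observations.

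**Figure D3:**
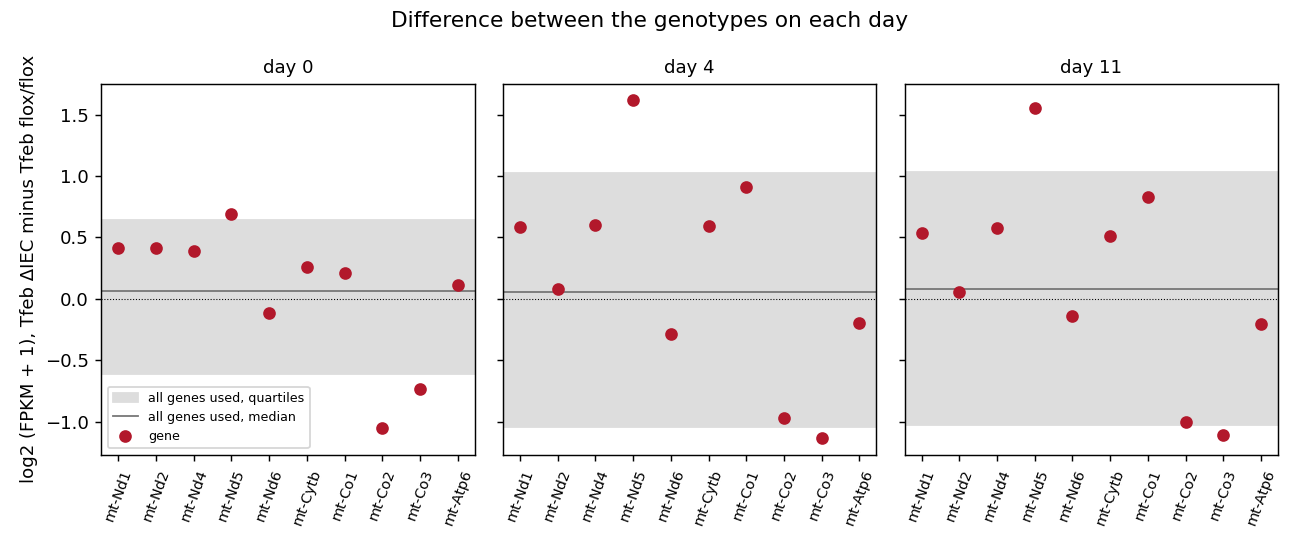
Difference in log2(FPKM + 1), Tfeb ΔIEC minus Tfeb flox/flox, of each of the 10 mRNAs on days 0, 4 and 11; each point compares 2 pooled values, the line is the median and the band the quartiles of all genes with at least 1 FPKM in either genotype. mt-Nd5 lies above the band at 0.69, 1.62 and 1.56 and mt-Co2 and mt-Co3 lie near or below its lower edge, while with each column divided by its sum mt-Nd6 and mt-Atp6 turn positive on days 4 and 11.

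The direction of these differences depended on the scaling for some of the genes. Since the summed FPKM of the genotypes differed on days 4 and 11, the differences were computed with 5 scalings: the FPKM as deposited, division by the column sum, centring on the median of all genes used, division by the sum over nuclear genes of at least 200 nt, and division by the upper quartile. mt-Nd1, mt-Nd4, mt-Nd5, mt-Cytb and mt-Co1 were higher in Tfeb ΔIEC cells with all 5 on each day. On day 0 the same held for mt-Nd2 and, without its nuclear copy, mt-Atp6, and mt-Co2 and mt-Co3 were lower with all 5. On days 4 and 11, mt-Nd2, mt-Nd6, mt-Co2, mt-Co3 and mt-Atp6 changed direction with the scaling. Over all genes used, 52.7%, 51.3% and 51.7% were higher in Tfeb ΔIEC cells as deposited on days 0, 4 and 11. The share of all genes that kept 1 direction with all 5 scalings was not computed. For mt-Nd5 on day 4 the log2 difference was 1.45 to 2.98 over the scalings, and for mt-Co1 0.74 to 2.27. Gene length moved with the differences as well: over all genes of 500 to 1000 nt the median was -0.57 on day 0 and -1.06 on day 4, and over those of 1000 to 2000 nt it was -0.01 and 0.02. Of the 5 mRNAs in the shorter range (mt-Nd1, mt-Nd6, mt-Co2, mt-Co3 and mt-Atp6), 3 were above their range's median on day 0 and 4 on day 4. Of the 5 in the longer range all were above it on each day. The part of length in these values was not tested.

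The shares of the summed FPKM describe how much of each sample the 10 mRNAs made up, and allow days to be set side by side. The 10 together were 6.04% of the summed FPKM in Tfeb flox/flox cells and 7.50% in Tfeb ΔIEC cells on day 0, 2.17% and 6.26% on day 4, and 2.00% and 5.51% on day 11. All mtDNA genes together were 27.6% and 29.4% on day 0, 10.7% and 20.3% on day 4, and 8.64% and 18.6% on day 11, of which mt-Rnr2 alone took 5.11% to 19.6%. On days 4 and 11 Tfeb flox/flox cells had the lowest shares of the 6 groups. The denominators are in part made of very short or unmatched genes, which took 13.0% to 18.6% of the summed FPKM in Tfeb flox/flox and 27.0% to 28.7% in Tfeb ΔIEC cells. Taken over genes of at least 200 nt only, the 10 were 7.43% and 10.5% on day 0, and 2.49% and 8.57% on day 4.

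In Tfeb flox/flox cells the share of each of the 10 mRNAs was lower on day 4 than on day 0, as was that of 73.2% of all genes used. The log2 ratio of shares was -1.98 for mt-Nd5, -1.92 for mt-Co1, -1.58 for mt-Nd4 and -1.20 to -1.31 for mt-Nd1, mt-Nd2, mt-Nd6 and mt-Cytb. For mt-Atp6, mt-Co3 and mt-Co2, those copied whole in the nucleus, it was -0.64, -0.25 and -0.15. By a 2-fold difference 7 of 10 were lower, beside 43.3% of all genes used, and the median was -1.26 beside -0.79 over all genes. From the FPKM as deposited only 2 of 10, mt-Nd5 (-1.40) and mt-Co1 (-1.33), were at least 2-fold lower, beside 25.7% of all genes used, and mt-Co2 (0.44) and mt-Co3 (0.33) were higher on day 4. In Tfeb ΔIEC cells the ratios ran from -0.81 (mt-Nd2) to 0.77 (mt-Co2), with a median of -0.21 beside 0.05 over all genes. As shares, 0 of 10 were at least 2-fold lower in Tfeb ΔIEC cells, beside 9.59% of all genes used, with mt-Nd5 at -0.22, mt-Co1 at -0.39 and mt-Cytb at -0.09. From the FPKM as deposited 1 of 10 was (mt-Nd2, at -1.06), beside 15.6%. The gap between the genotypes depended on the scaling: as shares the medians were -1.26 for Tfeb flox/flox cells and -0.21 for Tfeb ΔIEC cells, -0.67 and -0.45 from the FPKM as deposited, -0.47 and -0.25 after centring on the median of all genes, and -1.61 and -0.52 as shares of the nuclear genes of at least 200 nt. Whether the genotypes differ in this respect could not be tested with 1 value per group.

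From day 4 to day 11 all 10 shares were slightly lower in both genotypes. The log2 ratios were -0.39 to -0.04 in Tfeb flox/flox cells and -0.37 to -0.05 in Tfeb ΔIEC cells. Over all genes used, 56.3% and 51.4% were lower, with medians of -0.009 and -0.003. As day 11 is not treated as a second observation of day 4, no change is read from these values. The FPKM itself on day 11 was 0.767 to 0.979 times and 0.779 to 0.972 times that on day 4. None of the 10 had identical values on both days. mt-Co3 had the lowest ratio in both genotypes. The highest was that of mt-Atp6 in Tfeb flox/flox cells, and of mt-Atp6 and mt-Nd6 alike (0.972) in Tfeb ΔIEC cells.

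**Figure D4:**
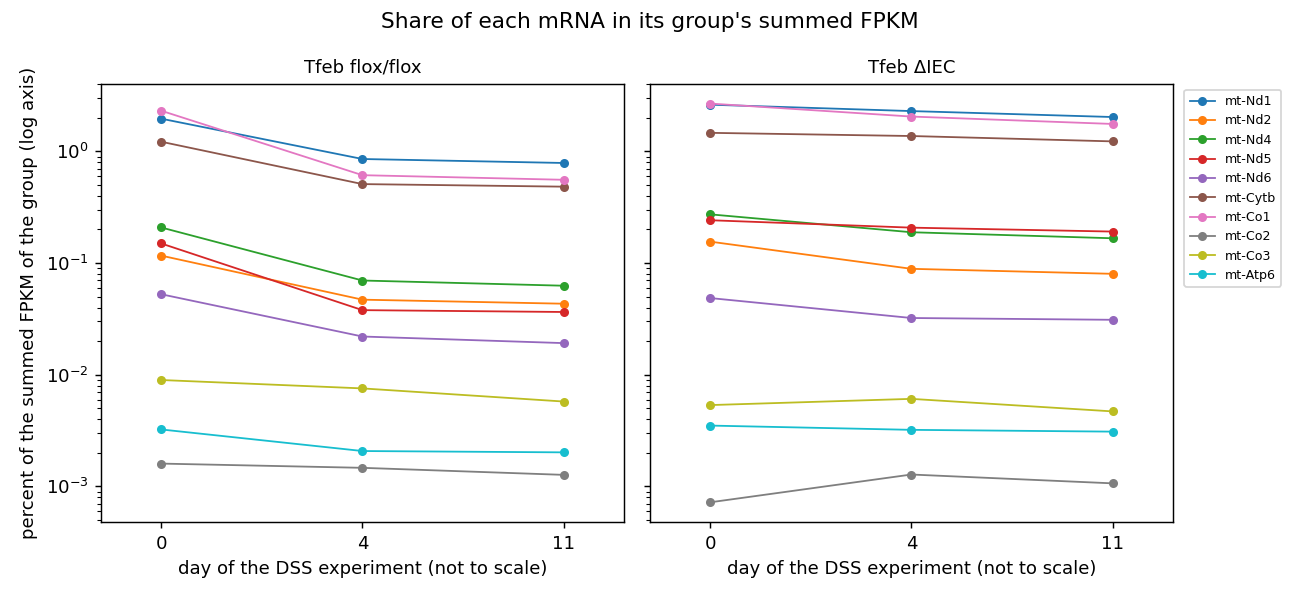
Percentage of the summed FPKM of a group (log axis) that each of the 10 mRNAs made up on days 0, 4 and 11, with Tfeb flox/flox on the left and Tfeb ΔIEC on the right; points are pooled values of 2 animals and lines only join the points of a gene. In Tfeb flox/flox cells mt-Co1 goes from 2.31% to 0.613% between days 0 and 4, and in Tfeb ΔIEC cells from 2.68% to 2.05%.

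The nuclear-encoded subunits of the same complexes gave other values. The shares of all genes used that were at least 2-fold lower, against which the counts are to be read, were 16.1%, 26.1% and 25.7% on days 0, 4 and 11. Of 36 nuclear genes of complex I, 25 were at least 2-fold lower in Tfeb ΔIEC cells on day 0 and 28 on day 4, with medians of -1.25 and -2.44, while the 5 mRNAs of mtDNA had medians of 0.41 and 0.59. Ndufb9, the highest of these nuclear genes, was at 1712 and 648 FPKM on day 0 and at 3299 and 676 FPKM on day 4. Ndufa6 and Ndufa3 were at -2.57 and -3.46 on day 4, and Ndufb4 was at 7.40 FPKM and listed at 0 on day 0. In complex III the median of 9 nuclear genes was -1.36 on day 0 and -2.19 on day 4, with 5 of 9 at least 2-fold lower on both days, and mt-Cytb was at 0.26 and 0.59. Its nuclear genes of highest mean over the groups, Uqcrq, Uqcrh and Uqcr10, were at -3.41, -2.48 and -3.10 on day 4. The other direction was held by 4 of 9 on day 4, named after their values were seen: Cyc1 (0.046), Uqcrfs1 (0.57), Uqcrc1 (0.60) and Uqcrc2 (1.83). On day 11 the nuclear medians of complexes I and III were -2.37 and -2.11, with 29 of 36 and 5 of 9 genes at least 2-fold lower.

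In complex IV all 10 nuclear genes were at least 2-fold lower in Tfeb ΔIEC cells on each day, with medians of -1.29, -2.60 and -2.54. Cox4i1, a regulatory subunit, was at 8562 and 3596 FPKM on day 0 and at 20447 and 3954 FPKM on day 4, and Cox8a and Cox6b1 were at -2.69 and -2.54 on day 4. mt-Co1 and mt-Co3 lay above the highest of the 10 nuclear genes on each day, and mt-Co2 on days 4 and 11. On day 0 the place of mt-Co2 depended on the pseudocount: its FPKM was 2.22 times as high in Tfeb flox/flox as in Tfeb ΔIEC cells, beside 2.08 times for Cox5a and 2.18 times for Cox6c, the nuclear genes with the smallest differences, named after their values were seen. In complex V the median of 16 nuclear genes was -0.93, -2.38 and -2.42, with 7, 13 and 13 at least 2-fold lower, and mt-Atp6 was at 0.11, -0.20 and -0.21. The 16 include Atpif1, which is not a subunit. Atp5g3, Atp5b and Atpif1, an inhibitor of the enzyme, were at -3.02, -2.05 and -2.96 on day 4, and Atp5g2 was at 14.6 FPKM and listed at 0 on day 0. Atp5a1, a subunit of the F1 head named after its values were seen, was the 1 of 16 that was at least 2-fold higher on days 4 and 11, at 2.45 and 2.52. The summed FPKM of the complex I subunits from mtDNA was 2.46 times that of the nuclear ones in Tfeb flox/flox cells and 7.33 times in Tfeb ΔIEC cells on day 0, and 0.692 and 5.20 times on day 4. The ratio within a column does not depend on how the column was scaled. The nuclear subunits are short, with median lengths of 810, 535, 625.5 and 744.75 nt for complexes I, III, IV and V, and for genes of 500 to 1000 nt the median over all genes was -0.57 on day 0 and -1.06 on day 4. As the genes were not sampled as replicates, no test of these list differences is given.

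**Figure D5:**
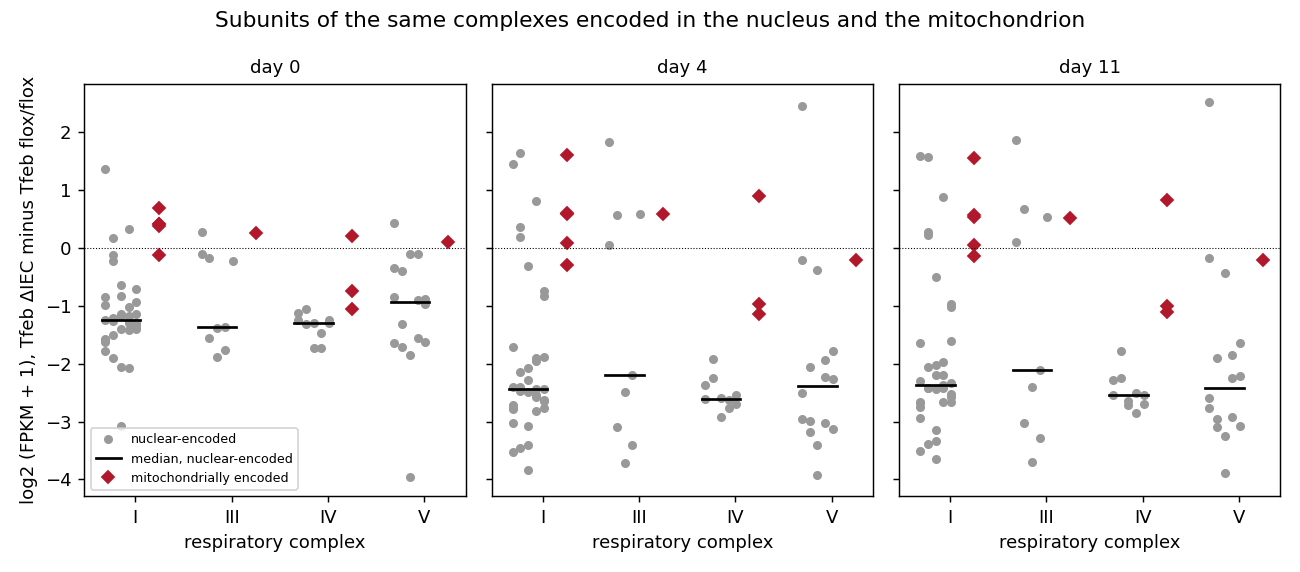
Difference in log2(FPKM + 1), Tfeb ΔIEC minus Tfeb flox/flox, of nuclear-encoded (circles, with their median as a line) and mitochondrially encoded (diamonds) subunits of complexes I, III, IV and V on days 0, 4 and 11. The circles of complex V include Atpif1, an inhibitor of the enzyme. On day 4 the medians of the nuclear subunits lie between -2.60 and -2.19 and the diamonds between -1.13 and 1.62, while division by the sum over nuclear genes of at least 200 nt turns mt-Co2 and mt-Co3, and division by the column sum turns mt-Nd6 and mt-Atp6, from negative to positive.

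For the further lists, the shares of all genes used at least 2-fold lower and higher were 16.1% and 13.5% on day 0, 26.1% and 25.6% on day 4, and 25.7% and 26.1% on day 11. Of the genes for replication and transcription of mtDNA, 9 of 17 were at 1 FPKM or more on day 0 and 7 on day 4, with 1 and 2 at least 2-fold lower and 1 and 2 higher in Tfeb ΔIEC cells. Tfam, which packages mtDNA and starts its transcription, was at 5.99 and 5.79 FPKM on day 0 and at 7.13 and 16.2 FPKM on day 4. Polrmt, the mitochondrial RNA polymerase, was at 3.54 and 5.15 FPKM on day 0 and at 7.08 and 2.55 FPKM on day 4, and Polg, the mtDNA polymerase, at 3.54 and 6.43 FPKM, and 2.55 and 4.70 FPKM. Tfam and Polrmt thus lay on opposite sides on day 4.

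Of 22 genes for the processing and stability of mitochondrial RNA, 20 were used on day 0 and 19 on day 4, with 1 at least 2-fold lower on each day and 4 and 5 higher, and medians of 0.32 and 0.69 beside 0.06 over all genes on both days. Higher in Tfeb ΔIEC cells by any amount were 15 of 20 on day 0 and 12 of 19 on day 4, beside 52.7% and 51.3% of all genes used. Slirp, which with Lrpprc stabilises mitochondrial mRNAs, was at 97.9 and 55.4 FPKM on day 0 and at 374.4 and 39.7 FPKM on day 4, whereas Lrpprc was at 1.42 and 4.72 FPKM, and 0.111 and 3.72 FPKM. Hsd17b10, a subunit of the mitochondrial RNase P, was at -0.18 and -0.20, and Fastk at 0.80 and 0.83. Pnpt1, a mitochondrial RNA-degrading enzyme, was at 3.64 and 10.3 FPKM on day 0, and on day 4 listed at 0 in Tfeb flox/flox and at 4.57 FPKM in Tfeb ΔIEC cells. Of 12 regulators of mitochondrial biogenesis, 11 were used on day 0 and 10 on day 4, with 1 lower and 2 higher on both days and medians of -0.33 and 0.22. On days 4 and 11 the 1 lower was Tfeb, the deleted gene itself (-1.06 and -1.13), so that count was set by the design. Among them Nrf1, which activates nuclear genes for respiration, was at 4.29 and 9.67 FPKM on day 0 and at 3.51 and 4.35 FPKM on day 4. Tfe3, a relative of Tfeb, was at 4.32 and 1.90 FPKM on day 0 but at 1.56 and 3.61 FPKM on day 4, and Esrra at 1.53 and 0.959 FPKM, and 3.01 and 3.60 FPKM. Of 25 genes of the outer membrane, import and matrix, 23 were used, with 5 lower and 0 higher on day 0, 9 lower and 7 higher on day 4, and medians of -0.08 and -0.29. Vdac2, a channel of the outer membrane, was at 83.1 and 106.8 FPKM on day 0 and at 61.0 and 129.5 FPKM on day 4, Phb2 at -0.24 and 0.30, and Timm8b at -1.86 and -2.27. On day 11 the medians of these 4 lists, in the order given, were 0.61, 0.68, 0.17 and -0.27, with 2, 1, 1 and 9 genes lower and 1, 5, 2 and 7 higher.

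Across the 6 groups, 8 of the 10 mRNAs had similar patterns. The Pearson correlation of log2 share with the mean of the other 9 was 0.917 to 0.998 for mt-Nd1, mt-Nd2, mt-Nd4, mt-Nd5, mt-Nd6, mt-Cytb, mt-Co1 and mt-Atp6, but -0.37 for mt-Co2 and -0.08 for mt-Co3. The 6 values of a gene come from the same 6 pooled columns and share their denominators, so the correlation is a description. Among 1561 genes with at least 10 FPKM in all groups, those nearest to the mean of the 10 were Ociad1, Rpl5, Eef1b2, Appl2 and Eef1g, with correlations of 0.996 to 0.998 over the 6 groups. Such a pattern was common: 300 of the 1561 genes (19.2%) had a correlation of at least 0.9.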

How the data were processed

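Colon epithelial cells of 12 animals in 6 groups were sequenced by the authors as paired-end MiSeq reads from full-length cDNA (a variation of SmartSeq2). Per the submitters' processing notes and the methods, reads were mapped to mm10 with TopHat2 2.0.14 and Bowtie, and the genotypes of each day were compared with Cuffdiff 2.1.1. The annotation and the handling of reads with several matches are not given in the sources used here. The 3 tables deposited by the authors hold 1 FPKM per genotype and gene, pooled over 2 animals and normalized within the day, and the authors' fold changes, test statistics, p-values and q-values, which were not used. The depth per sample is unknown. Groups were taken from the labels.

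The 10 genes and all lists were chosen with earlier results of these data known. The difference is log2(FPKM + 1), Tfeb ΔIEC minus Tfeb flox/flox, over genes with at least 1 FPKM in either genotype, and a gene counts as past 2-fold on that scale. With 1 value per group no test, SD or p-value could be computed. Days were compared mainly as log2 ratios of shares of the column sum, and deposited FPKM is also given side by side. All 10 genes are named with their values in every group. Also named, with values for some of the days or by range, are the other mtDNA genes, the 3 genes of highest mean in each further list, genes of a list at 0 in 1 group and at least 5 FPKM in another (tRNAs and cell markers by range or sum only), and the 5 genes of the most similar pattern. Gene lengths (47218 of 47632 genes matched), 50-base stretches and sequences are from GENCODE M21, whose assembly is that of mm10, and coordinates count from 1. The pseudogene copies were examined, and the alternatives that use them added, after the values had been seen. Alternatives were other pseudocounts, filters, folds, scalings and denominators. The computations ran in Python 3.11.15 (pandas 2.3.3, numpy 2.4.6, Biopython 1.88, scipy 1.17.1, matplotlib 3.10.9) and were tested on simulated data.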

Additional observations from a re-analysis of the deposited data

Results flagged for a closer look

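In 5 cases a value of 1 of the 10 mRNAs had the opposite sign in 2 groups or on 2 days, and the difference was not tested in any of them, since each rests on single pooled values. The log2 ratio of shares of mt-Co2 on day 4 over day 0 was 0.77 in Tfeb ΔIEC cells and -0.15 in Tfeb flox/flox cells, and that on day 11 over day 0 was 0.53 and -0.35. These opposite signs were found for shares only, since from the deposited FPKM the log2 ratios of mt-Co2 were positive in both genotypes (0.52 and 0.44 on day 4, 0.29 and 0.25 on day 11). For mt-Co3 the ratio on day 4 over day 0 was 0.19 in Tfeb ΔIEC and -0.25 in Tfeb flox/flox cells, but from the deposited FPKM it was -0.06 and 0.33, so both signs turned with the division by the column sums. The log2 difference of mt-Atp6 between the genotypes was positive on day 0 (0.11) but negative later, -0.20 on day 4 and -0.21 on day 11. With the FPKM of its nuclear copy Gm10925 added, mt-Atp6 had the opposite pattern, -0.25 on day 0 but 0.31 on day 4 and 0.29 on day 11. All 3 genes are those with a whole copy on chromosome 1.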

How the results depend on the processing

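No paired analysis was possible because each genotype and day has 1 pooled value, and for the same reason no replicate could be left out. The values of single genes kept their sign under the other pseudocounts and filters. The medians over the 10 genes moved by less than 1.5-fold under these, without mt-Nd6, with 5 genes that have no chromosome 1 copy, without the 3 copied whole, and with the FPKM of the chromosome 1 copies added. Gm13340 and Gm13341 on chromosome 2 were not added. With the chromosome 1 copies added, mt-Atp6 turned (-0.25, 0.31 and 0.29 on days 0, 4 and 11), and mt-Nd4, mt-Co1, mt-Co2 and mt-Co3 kept their sign. Scaling had larger effects. Division by the column sum moved the median over all genes used by 0.00, 0.60 and 0.60 on days 0, 4 and 11, division by the sum over nuclear genes of at least 200 nt by 0.45, 1.09 and 1.09, and division by the upper quartile by -0.05, -0.14 and -0.14. Of all genes past 2-fold, 54.4%, 50.4% and 49.6% were lower as reported, 54.0%, 27.3% and 26.7% with the column sum, and 28.3%, 19.0% and 18.6% with the nuclear sum. The split was 71.3%, 59.3% and 59.4% at a pseudocount of 5 FPKM and 68.5%, 59.8% and 59.7% at a filter of 10 FPKM. The median over the 10 genes was 1.17 and 1.12 on days 4 and 11 with the column sum, and 1.70 and 1.64 with the nuclear sum. With the column sum, 0 of 10 were lower and 5 higher on days 4 and 11, beside 15.2% and 14.9% of all genes lower and 40.5% and 41.0% higher, and with the nuclear sum 0 lower and 1, 8 and 8 higher on days 0, 4 and 11, beside 12.0%, 12.6% and 12.2% lower and 30.5%, 53.7% and 53.8% higher. The share of all genes past the same limit follows each further count. On day 0 the count lower was 0 at a pseudocount of 5 FPKM (6.24%) and at 4-fold (3.35%) and 2 at 1.5-fold (25.6%), and the count higher 1 at 1.5-fold (27.3%). On day 4 the count lower was 2 at a pseudocount of 0.1 FPKM (30.7%), after centring (27.1%), with the upper quartile (33.4%) and at 1.5-fold (34.3%), and 0 at 4-fold (10.3%), and the count higher was 5 at 1.5-fold (36.4%) and 0 at 4-fold (7.36%). On day 11 the count lower was 1 at a pseudocount of 5 FPKM (13.6%) and with the copies added (25.7%), and 0 at 4-fold (10.2%), and the count higher 2 at 1.5-fold (37.1%) and 0 at 4-fold (7.46%). The sign turned for mt-Nd6 with the nuclear sum (0.38, 1.08 and 1.21 on days 0, 4 and 11) and with the column sum (0.55 and 0.69 on days 4 and 11), for mt-Atp6 on days 4 and 11 with the column sum (0.61 and 0.59) and the nuclear sum (1.13 and 1.11), for mt-Co2 (0.32 and 0.26) and mt-Co3 (0.22 and 0.23) with the nuclear sum, and for mt-Nd2 with the upper quartile (-0.082 and -0.11) and, on day 11, after centring (-0.021). Of 255 values of single genes under an alternative, 208 moved by less than 1.5-fold with the same sign, 28 moved further and 19 turned. The denominator was also taken without the 10 highest other genes. The 10 mRNAs then made up 9.70% in Tfeb flox/flox cells and 16.6% in Tfeb ΔIEC cells on day 0. They made up 3.14% and 11.1% on day 4, and 2.91% and 9.76% on day 11. The median log2 ratio of day 4 over day 0 in Tfeb flox/flox cells was -0.67 from the FPKM as deposited and -0.47 after centring. Apart from those whose construction is a rescaling, the cause was not tested.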
